A study of Mus musculus with 11 samples.

Results

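The 250 regions of 500 kb that took the largest share of their contacts from other chromosomes were described in Hi-C maps of mouse Th1 cells. They were chosen among 4676 regions (bins) on chromosomes 1 to 19 that held at least 300 contact ends in a pooled single-cell map, from which all contacts listed in 9 of the single cells had been removed. The trans share of a bin is the share of its contact ends that lie in contacts with another chromosome. The bins were thus selected on their trans share in that pool. The 250 with the largest trans share are called the highest bins, and the 250 with the smallest share the lowest bins. All coordinates are on mm9.

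In Hi-C, cut ends of chromatin that are near each other in the nucleus are ligated, and each ligated pair of fragment ends is read as 1 contact. Single-cell maps of 10 cells, the authors' pool of single cells and an ensemble map of many cells were used. All cells were CD4+ Th1 cells, a class of helper T cells, from spleens of male C57BL/6 mice, stimulated with 1 µg/ml anti-CD3 for 3 days and expanded with 20 ng/ml IL-2. The restriction enzyme was Bgl II for cells 1 to 7, 9 and 10, for the pool and for the ensemble. For cell 8 it was Dpn II, so enzyme and cell cannot be told apart there.

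The Bgl II cells held 11156 to 30665 contacts and cell 8 held 12225. The pool held 2119836 contacts after 174955 (7.62%) were removed, and the ensemble 51834382. The pool had included each contact of the 9 Bgl II cells and 0 of cell 8. Separate animals or cultures are not named in the labels. SDs and p-values therefore concern only these cells, and the spread between them may be technical. Contacts of the 10 cells and of the ensemble took no part in the choice of bins. Wilson intervals (95%) cover counting error alone and treat both ends of a contact as separate.

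Each chromosome occupies a territory of its own in the nucleus, and trans contacts form where territories meet or where chromatin reaches out of one. Within a chromosome, chromatin falls into 2 compartments: one is open, gene-rich and active, the other compact and mostly silent, and each contacts its own kind over long distances. Parts of a chromosome that lie at the surface of its territory can contact other chromosomes more than parts buried inside it.

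In the pool, which chose them, the highest bins had trans shares of 29.8% to 68.5% with a median of 31.8%, against 7.80% to 12.9% with a median of 12.01% in the lowest bins. The median of all 4676 eligible bins was 19.3%. The rank boundary is not sharp. Just inside it lay bins on chromosome 5 from 32000001 to 32500000 (320 of 1074 ends, 29.80%) and on chromosome 11 from 4000001 to 4500000 (340 of 1142 ends, 29.77%). Just outside it lay chromosome 10 from 128000001 to 128500000 (29.77%) and chromosome 19 from 57000001 to 57500000 (29.75%). The Wilson intervals of 155 of the highest bins reached below the threshold, and those of 284 other bins reached above it. At the other boundary the last of the lowest bins had 12.90% and the nearest bin outside 12.91%. Of 4955 autosomal bins, 279 had too few contact ends to be ranked, and 153 of these had none.

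The highest bin was chromosome 11 from 3000001 to 3500000, where the pool gave 2711 of 3955 ends in trans contacts (68.5%) and the ensemble 81.2%. In the 9 Bgl II cells 18 of its 68 ends were in trans contacts (26.5%, 17.4 to 38.0). It stood apart by its depth, with 4.42 times the contact ends of the median bin in the pool and 6.33 times in the ensemble, but 0.932 times in the 9 cells. It held 16 of the 17 fragment ends of the genome that had 100 or more contacts in the pool. The busiest of these had 212 contacts, where the median fragment end had 4 and the busiest in any other of the highest bins had 30. Because of this bin, values over the set are given with and without it where it moves them.

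The next 9 bins had pool shares between 37.8% and 42.2%. On chromosome 12 from 116000001 to 116500000, 127 of 301 ends were in trans contacts in the pool (42.2%), and the 9 Bgl II cells gave 9 of 25 (36.0%). On chromosome 14 from 54500001 to 55000000 the pool gave 152 of 362 (41.99%) and the cells 13 of 34 (38.2%). Chromosome 17 from 34500001 to 35000000 had 255 of 626 (40.7%) in the pool and 25 of 64 (39.1%, 28.1 to 51.3) in the cells, and it was the only one of the 10 highest bins to exceed the cell's own autosomal trans share in each of the 10 cells. These 3 bins were thus high in the pool and in the cells, although the single-cell counts are small.

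On chromosome 19, the bin from 6500001 to 7000000 had 40.4% in the pool and 14 of 36 ends (38.9%) in the cells. The bin from 7000001 to 7500000 had 39.0% and 26 of 67 (38.8%). The bin from 5000001 to 5500000 had 37.8% and 35 of 89 (39.3%, 29.8 to 49.7). All 3 lay above the share of chromosome 19 as a whole in the 9 cells, 24.6%, and above the mean of the cells over eligible bins, 17.9%. In cell 8 these bins had 0 of 4, 0 of 4 and 1 of 4 ends in trans contacts. Of the remaining bins, chromosome 10 from 80000001 to 80500000 had 37.97% in the pool and 17 of 53 ends (32.1%) in the cells. Chromosome 6 from 3000001 to 3500000 (38.6%) and chromosome 17 from 27500001 to 28000000 (38.2%) were not high in the cells, with 3 of 15 ends (20.0%) and 17 of 81 ends (20.99%, 13.5 to 31.1). In the ensemble the 10 bins had 50.9% to 81.2%, against a whole-set median of 56.4%.

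The 5 lowest bins all lay on chromosome 1, starting at 118000001, 120500001, 121000001, 122500001 and 126500001, with pool shares of 7.80% to 9.26%. In the 9 cells they had 6.98% to 11.6%, and in the ensemble 39.4% to 47.6%. Each was below the median of the highest bins in both.

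The trans share of the highest bins was above that of the lowest bins in each of the 10 single cells. It was 26.2% ± 8.15 in the highest bins, 11.8% ± 5.70 in the lowest bins and 17.9% ± 6.69 in all eligible bins (SD, n = 9 Bgl II cells). In the highest bins the cells lay between 12.3% (cell 1, 380 of 3083 ends) and 36.9% (cell 4, 815 of 2206 ends), with a median of 26.2%. In the lowest bins they lay between 4.04% (cell 1, 121 of 2994 ends) and 19.3% (cell 4, 396 of 2057 ends), with a median of 12.2%. The ranges of the 2 sets overlap across cells, and the cells also differ in their overall trans share. The Wilson intervals of the 2 sets were apart within each of the 10 cells.

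Within a cell the difference was 14.4 points ± 2.82 (SD, n = 9), with 8.28 points in cell 1 and 17.7 in cell 4 as its extremes. The highest bins had 1.51 ± 0.175 times the trans share of all eligible bins, from 1.34 times in cell 2 to 1.81 times in cell 6. Cell 8, cut with the other enzyme, had 31.3% in the highest bins, 13.5% in the lowest and 22.6% in all eligible bins, each between the extremes of the other 9 cells. Its difference of 17.8 points was just above theirs. In the ensemble the 3 values were 56.3%, 45.7% and 50.5%, a ratio of highest to eligible bins of 1.12. Without the highest bin on chromosome 11 the mean over cells was 26.2% and the ensemble value 55.9%.

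**Figure D1:**
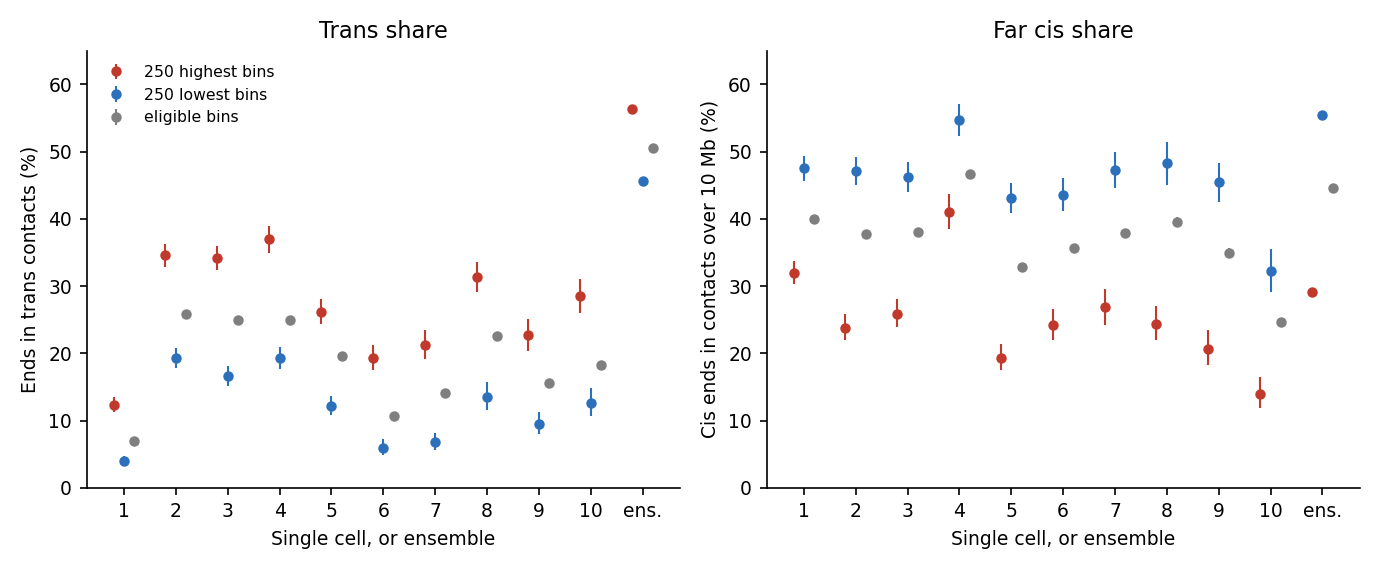
Trans share (left, percent of contact ends) and share of cis ends in contacts over 10 Mb (right, percent) in each of the 10 single cells and the ensemble, for the 250 highest bins, the 250 lowest bins and the 4676 eligible bins. Points are shares and bars 95% Wilson intervals; the highest bins lie above the lowest in trans share in each map and below them in far cis share.

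Next, the highest bins were set against all other eligible bins, first over the genome and then on the same chromosomes. Their trans share was above that of the other eligible bins by 8.78 points ± 2.14 (SD, n = 9), in 10 of 10 cells. Against other eligible bins of the same chromosomes, weighted by the ends each chromosome gave, they were higher by 7.504 points ± 1.92 (SD, n = 9; 5.14 in cell 1 to 10.9 in cell 4) and in 10 of 10 cells. The lowest bins were lower than other bins of their chromosomes by 4.89 points ± 1.41, in 10 of 10 cells. The same differences in the ensemble were 5.11 and -3.30 points. These comparisons were added after the data were seen. With both sets ranked within chromosomes, after subtracting each chromosome's own trans share, highest minus lowest bins came to 11.6 points ± 2.39 (SD, n = 9), against 14.4 points above.

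Bin by bin, the shares in the pool were related to those in the other maps, with much scatter. Pool and ensemble trans shares correlated with Pearson r = 0.618 and Spearman rho = 0.591 over 4676 bins, and pool and 9 cells with r = 0.567 and rho = 0.547 over the 4639 bins with 30 or more ends in the cells. Among the highest bins alone, pool and ensemble had r = 0.543, or 0.414 without the highest bin. The maps share the cell type, the enzyme and the number of fragment ends of each bin, and neighbouring bins are not independent, so these values are a description. In the ensemble the median of the highest bins lay at the 91.8th percentile of eligible bins. Of the highest bins 97 of 250 were among the ensemble's 250 highest, where 5.35% of eligible bins were, and 235 of 250 were above its median (50% of eligible bins). Of the lowest bins 0 and 20 of 250 were.

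**Figure D2:**
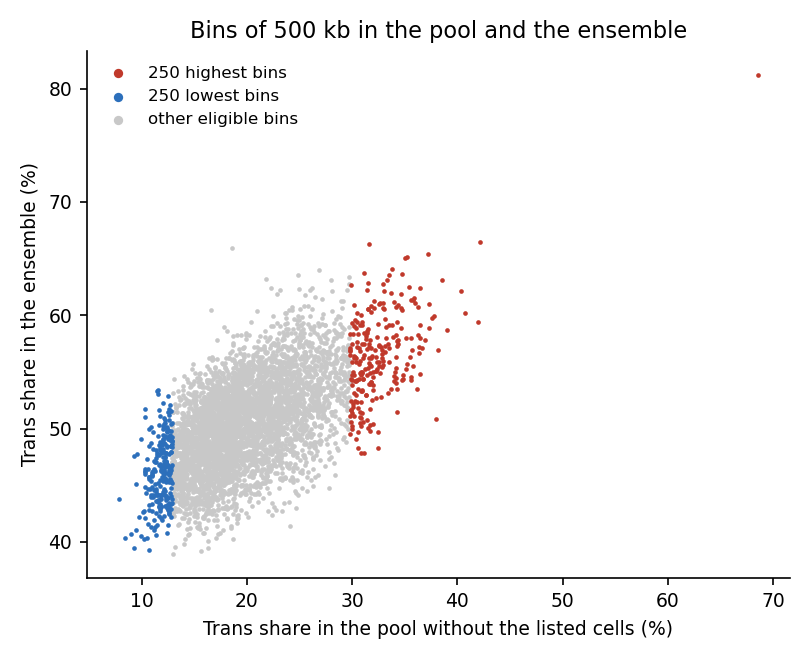
Trans share (percent of contact ends) of each of the 4676 eligible bins in the pool without the listed cells (x axis) and in the ensemble (y axis), with the 250 highest and 250 lowest bins in colour. The highest bins lie at 47.8% to 81.2% in the ensemble and the lowest at 39.3% to 53.4%; the lone point at the upper right is the bin at the start of chromosome 11.

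A single bin has few contacts in 1 cell. Of the highest bins 57 of 250 were above the cell's own autosomal trans share in at least 8 of the 10 cells, against 4.32% of all eligible bins and 0 of the lowest bins. The highest bins were above it in a median of 6 cells, the lowest bins in 3 and all eligible bins in 4.

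With limma, 4639 bins were fitted over the 9 Bgl II cells, of which 241 were highest bins (9 had under 30 ends in the cells). The fit asked whether a bin's trans share differed from the cell's autosomal share, with each cell weighted by its contact ends in the bin and p adjusted by Benjamini-Hochberg over all bins. Among the highest bins 0 passed (0% of all bins), and the smallest adjusted p among them was 0.175, for chromosome 17 from 35500001 to 36000000 (34.4 points higher, SE 7.56, higher in 8 of 9 cells). The excess was positive in 220 of the 241 highest bins and 30 of the 250 lowest, against 45.9% of all bins, with medians of 8.32, -6.24 and -0.65 points. At an unadjusted p under 0.05, 71 of the 241 highest bins were higher (5.52% of all bins) and 0 lower, and 0 of the 250 lowest bins were higher and 56 lower (6.6% of all bins). Over all bins 562 reached that level, and 0 passed after adjustment. Without cell 4 that chromosome 17 bin passed (limma adjusted p = 0.0429), and without cell 9 a bin outside both sets did, on chromosome 2 from 34500001 to 35000000 (limma adjusted p = 0.0266).

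The highest bins were more frequent on chromosomes 15, 17 and 19 than on any other. They fell on 19 chromosomes, but 96 of 250 (38.4%) were on chromosomes 15, 17 and 19, which hold 10.6% of eligible bins. On chromosome 19 there were 32 (28.1% of its eligible bins), on chromosome 17 there were 37 (20.7%) and on chromosome 15 there were 27 (13.4%). Chromosomes 16 and 18, which are also short, had 6.32% and 7.43% of their eligible bins among the highest. Chromosomes 1 and 6 had 1 bin each. The lowest bins fell on 10 chromosomes, with 201 of 250 (80.4%) on chromosomes 1, 2, 3 and 6 (79, 54, 35 and 33), which hold 28.5% of eligible bins. By count, chromosome 17 held the most highest bins, and by share of its eligible bins chromosome 19 did.

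Over the 19 autosomes the pool's trans share was lower on longer chromosomes (r = -0.909, rho = -0.909, n = 19), with 17.1% on chromosome 1 and 28.0% on chromosome 19. The share of class 1 bins, described next, had r = 0.202 with it. The pool that chose the bins gave these shares, so they are a description. Ranking bins within chromosomes kept 178 of the 250 highest bins. Of the 250 highest by that ranking, 27 lay on chromosomes 17 and 19.

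**Figure D3:**
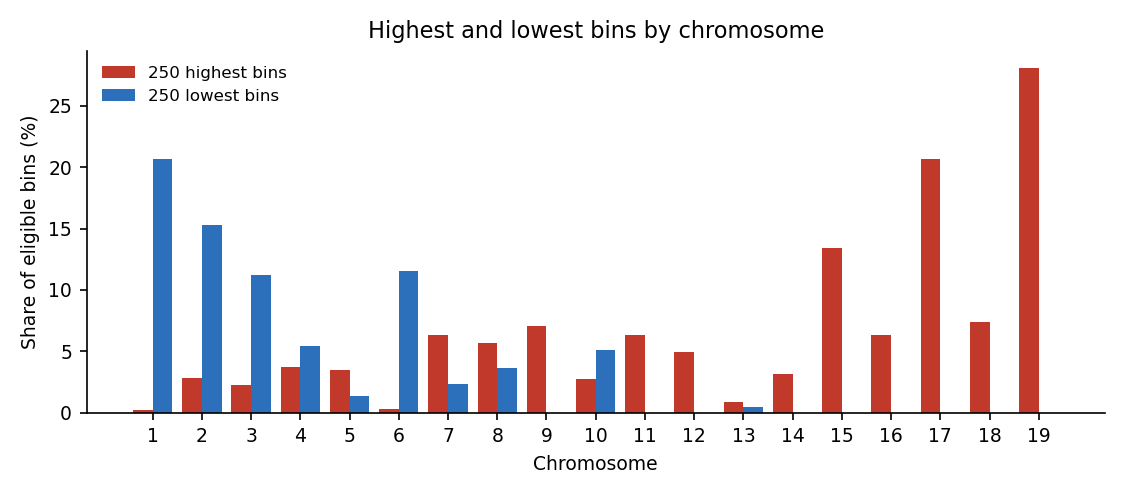
Share of each chromosome's eligible bins that were among the 250 highest or the 250 lowest (y axis, percent), by chromosome (x axis). Chromosomes 15, 17 and 19 have the tallest bars for the highest bins and chromosomes 1, 2, 3 and 6 for the lowest.

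Compartment classes were taken from the ensemble's cis contacts, by the sign of the first eigenvector at 1 Mb; class 1 is the class with more fragment ends. Which class is the gene-rich one was not set, since no mm9 gene annotation was used here. Of the highest bins 226 were in class 1, 21 in class 2 and 3 had no class, so 91.5% (Wilson interval 87.4 to 94.4) of those classed were in class 1. Of the lowest bins 10 were in class 1 and 240 in class 2, which is 4% in class 1 (2.19 to 7.21). Over all eligible bins it was 36.4%. Other bins of the same chromosomes, weighted by the number of highest bins on each, had 29.3% in class 1. Neighbouring bins share a 1 Mb value, so the interval is too narrow. The median eigenvector value was 0.11 in the highest bins, -0.09 in the lowest and -0.06 over all eligible bins. Without balancing the ensemble matrix, the classes changed and the difference was smaller: 30.8% of the highest and 6.80% of the lowest bins were then in class 1.

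**Figure D4:**
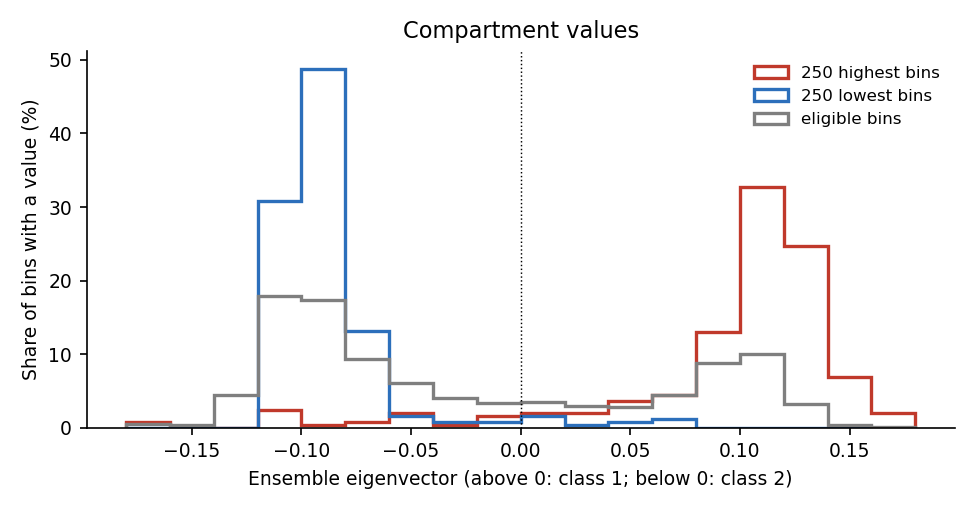
Distribution of the ensemble eigenvector at 1 Mb (x axis, no unit; above 0 is class 1) over the highest, lowest and eligible bins (y axis, percent of bins with a value). The highest bins peak near 0.11 and the lowest near -0.09, with eligible bins in 2 humps.

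Of the 21 class 2 bins among the highest, 7 lay in the first 10 Mb and 6 in the last 10 Mb of a chromosome, and 6 had a class 1 bin as neighbour. They had a median trans share of 57.9% in the ensemble, against 56.2% in the class 1 bins among the highest, and of 31.6% against 32.0% in the pool.

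The highest bins lay near chromosome ends more often than eligible bins did. Of 250, 51 (20.4%) lay in the first 10 Mb of a chromosome, next to the centromere and counted from 3000001, where eligible bins begin, and 65 (26.0%) in the last 10 Mb, against 7.49% and 8.11% of eligible bins. None of the 250 lowest bins lay in either, of 350 and 379 eligible bins there. Of the 134 highest bins outside both, 94.0% were in class 1, against 4% of the lowest bins and 35.3% of eligible bins there. The difference in trans share over the 9 cells, 14.4 points, was as large there.

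The highest bins ran together along the chromosome: 196 of 250 (78.4%) had another of them next to it, against 7.63% of eligible bins, and the 250 bins formed 106 runs, of which 54 were single bins and 9 had 5 bins or more. The longest run was on chromosome 17 from 23500001 to 36500000, 26 bins and 13 Mb, all in class 1. Its pool share was 34.3% and its ensemble share 57.4%. In the 9 Bgl II cells 581 of its 1921 ends were in trans contacts (30.2%, 28.2 to 32.3). The cells' own autosomal shares give 18.6%, and chromosome 17 as a whole had 20.1% in these cells. The run lay above the cell's autosomal share in all 10 cells. In the 9 Bgl II cells its values were 10.997% to 46.3% (median 27.9%), against 6.98% to 25.9% (median 18.3%) for all autosomes of those cells. The mean excess over the 9 Bgl II cells was 11.8 points ± 5.31 (SD), and an exact two-sided sign permutation test over these cells gave p = 0.00391 (adjusted 0.00391 over 2 tests), the smallest that 9 cells allow. This test was chosen after the run was seen, and the run was named for its length in the pool, not for its values in the cells.

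Other long runs lay on chromosome 15 from 76000001 to 81500000 (11 bins, 258 of 919 ends in the 9 cells, 28.1% against 18.8% expected), on chromosome 19 from 3000001 to 8000000 (10 bins, 227 of 698 ends, 32.5% against 18.3%) and on chromosome 4 from 132000001 to 136000000 (8 bins, 187 of 717 ends, 26.1% against 18.02%). Each of these 3 was above the cell's own share in 8 or 9 of the 10 cells, with all of its bins in class 1. A further run of 8 bins, on chromosome 19 from 8500001 to 12500000, had 7 bins in class 1 and 1 in class 2 and was above it in 7 of the 10 cells (140 of 527 ends, 26.6% against 18.2%). The 7 bins on chromosome 8 from 124000001 to 127500000 were above it in 5 of the 10 cells (130 of 578 ends, 22.5%). The expected values are autosomal shares of the cells, and whole chromosomes differ from them. In the 9 cells chromosome 15 had 19.9%, chromosome 19 had 24.6%, chromosome 4 had 16.5% and chromosome 8 had 18.1%. The run on chromosome 19 from 8500001 thus lay close to the share of its own chromosome.

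The lowest bins also ran together, 167 of 250 (66.8%) next to another of them against 8.58% of eligible bins, in 140 runs. The longest, on chromosome 1 from 110000001 to 119500000, had 19 bins of class 2. Where 18.2% were expected and chromosome 1 as a whole had 15.4% in the 9 cells, this run had 119 of 1113 ends in trans contacts (10.7%). It was lower than the cell's own autosomal share in 9 of 9 Bgl II cells, by 8.22 points ± 3.77 (SD; exact two-sided sign permutation test, p = 0.00391, the smallest that 9 cells allow).

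Among contacts on their own chromosome, the highest bins had fewer at long range. Of the cis ends of the highest bins, 25.3% ± 7.77 were in contacts over 10 Mb, against 45.2% ± 5.90 for the lowest bins and 36.5% ± 5.89 for all eligible bins (SD, n = 9). In cell 4 the values of the highest and lowest bins were 41.0% (571 of 1391 ends) and 54.7% (908 of 1661 ends), and in cell 10 they were 13.98% (123 of 880 ends) and 32.3% (270 of 837 ends). The highest bins were lower than the lowest in each of the 10 cells, by 19.9 points ± 3.73. They were lower than all other eligible bins by 11.8 points ± 2.98 and than other bins of the same chromosomes by 9.65 points ± 2.61 (SD, n = 9), in 10 of 10 cells each. In the ensemble the shares were 29.2% and 55.5%. Without bins in the first and last 10 Mb of the chromosomes, highest minus lowest bins came to -22.8 points.

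Bin by bin, a limma fit of the far cis share against the cell's autosomal share, weighted by cis ends over the 9 cells, called 111 of 4567 bins at an adjusted p under 0.05. The SE of a bin in this fit was set by a variance shared by all bins and by its number of cis ends. Its SE and p-value therefore do not measure the bin's own spread between cells. Among the 227 highest bins fitted 22 were lower (1.4% of all bins were called lower) and 1 was higher (1.03%). Among the 248 lowest bins fitted 0 were lower and 6 higher. At an unadjusted p under 0.05, 86 of the highest bins were lower (9.55% of all bins) and 4 higher (9.81%), and 0 and 70 of the lowest bins. The median excess was -11.3 points in the highest bins, 8.93 in the lowest and 0.403 over all bins. With no weights 0 bins were called in that fit (725 at an unadjusted p under 0.05). Without cell 2, 3, 6 or 7 the fit called 65, 62, 62 and 70 bins, and without cell 2 or 3, 12 and 14 of the highest bins were lower.

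The following bins were chosen after their values were seen, for the smallest adjusted p among the highest bins and for the lone call in the other direction. On chromosome 4 from 134000001 to 134500000, 7 of 93 cis ends were far, an excess of -30.2 points (SE 5.88, limma adjusted p = 0.00128, lower in 9 of 9 cells). On chromosome 4 from 132500001 to 133000000, 4 of 69 were far, an excess of -31.3 points (SE 6.82, limma adjusted p = 0.00695, lower in 9 of 9 cells). Both lie in a run of highest bins described above and had 15.6% and 17.3% far cis ends in the ensemble, against 29.2% over the highest bins. The bin on chromosome 2 from 3500001 to 4000000 had 29 of 41 far cis ends, an excess of 34.0 points (SE 8.85, limma adjusted p = 0.0159, higher in 8 of 9 cells), and 45.7% in the ensemble.

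Mutual pairing was described by the share of the trans partners of the highest bins that were themselves highest bins, against the share expected from the partner chromosome's ends. It was 14.4% ± 3.03 where 8.20% was expected, an excess of 6.23 points ± 2.93 and a ratio of 1.76 ± 0.355 (SD, n = 9 Bgl II cells), and 6.15 points without the bin at the start of chromosome 11. The count was above expectation in 9 of 10 cells. It was 148 against 82.5 in cell 2, 112 against 63.9 in cell 3 and 86 against 49.5 in cell 8. In cell 7, the cell with the largest ratio, 52 partners were seen against 23.7 expected (2.19 times), and in cell 4, 62 against 66.7 (0.930 times). Cell 4 alone fell below expectation. Summed over the 10 cells there were 744 such partners against 441 expected (1.69 times), counting a contact between 2 highest bins at both ends.

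Partners of the lowest bins were highest bins at 0.470 ± 0.250 times expectation, lower in 10 of 10 cells. Other class 1 bins had highest bins as partners at 1.37 ± 0.139 times expectation (10 of 10 cells), and class 2 bins at 0.580 ± 0.150. Other class 1 bins also paired with each other above expectation, in 10 of 10 cells. Of their trans partners 50.5% were such bins where 39.9% was expected, an excess of 10.6 points ± 2.69 (SD, n = 9). The ratio was 1.27 ± 0.0688, and 1.07 in the ensemble. Mutual pairing above expectation was thus not particular to the highest bins. The highest bins had 70.5% ± 7.30 of their trans partners in class 1, against 48.3% expected (10 of 10 cells higher), and the lowest bins 27.0% ± 5.99, against 47.5% expected (10 of 10 lower). With class 1 partners alone, class 1 highest bins had 1.24 ± 0.188 times the expected highest bins (9 of 10 cells), against 1.08 ± 0.0720 for other class 1 bins (8 of 10 cells). The difference between 1.24 and 1.08 was not tested. Lowest bins paired with lowest bins at 2.15 ± 0.827 times expectation, above it in 8 of 10 cells. This mean rests on small counts, such as 6 partners against 1.77 in cell 7. Summed over the 10 cells there were 116 against 68.1 expected (1.70 times), and the ensemble ratio was 1.22. With contacts of a cell that lay within 1 Mb at both ends counted once, the ratio of highest with highest bins was 0.956 in cell 4 and 2.36 in cell 7.

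**Figure D5:**
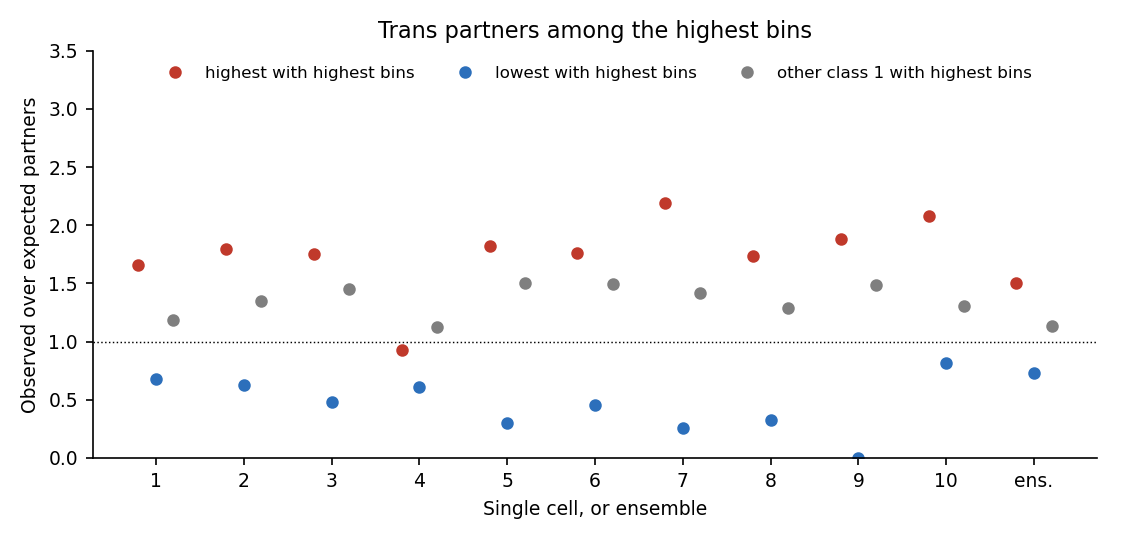
Observed over expected partners among the highest bins (y axis, ratio; dotted line at 1) in each single cell and the ensemble, for the trans contacts of highest bins, lowest bins and other class 1 bins. Highest bins lie above 1 in all maps but cell 4, lowest bins lie below 1 in each map, and other class 1 bins lie above 1 in each.

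In the ensemble, 14.6% of the trans partners of the highest bins were highest bins against 9.68% expected, a ratio of 1.51, and the ratio was 0.730 for the lowest bins and 1.13 for other class 1 bins. Without the bin at the start of chromosome 11, the highest bins had a ratio of 1.55, with 9.41% expected. Bin by bin, the ratio exceeded 1.2 in 176 of the 250 highest bins (12.1% of eligible bins) and 0 of the 250 lowest. The medians were 1.47 in the highest, 0.733 in the lowest and 0.781 over all eligible bins. All eligible bins over 1.2 were in class 1. The largest ratio among the highest bins was 2.14 on chromosome 11 from 120000001 to 120500000 (5931 partners against 2768), and the smallest 0.591 on chromosome 11 from 111500001 to 112000000 (454 against 768), a class 2 bin. The bin at the start of chromosome 11, the highest in trans share, was among the low ones (0.697).

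Pairs of single bins are sparse even in the ensemble. Of 28752 pairs of highest bins on different chromosomes, 214 had 20 or more expected contacts, and 210 of these had the bin at the start of chromosome 11 on one side. The 5 with the largest ratio were chromosomes 8 and 11 at their starts (3000001 on both; 109 contacts against 30.7, 3.55 times), chromosome 15 from 79500001 and chromosome 19 from 5500001 (74 against 20.98, 3.53 times), and 3 pairs of the chromosome 11 bin with chromosome 7 from 3000001 (88 against 29.1), chromosome 7 from 4000001 (60 against 21.2) and chromosome 12 from 3000001 (64 against 23.4). In the 10 cells 0 contacts joined these pairs. Each cell held 1803 to 7086 trans contacts, against 26257477 in the ensemble, so this does not show that the pairs are absent there. In the pool without the listed cells the 5 pairs had 4, 0, 5, 0 and 9 contacts, in the order given. The median ratio over the 214 pairs was 0.599, against 0.790 over the 2242 pairs of eligible bins with 20 or more expected, and 18.2% against 32.1% of pairs were above expectation. Without the chromosome 11 bin, and with 10 or more expected contacts (a setting chosen after the data were seen), 8347 pairs had a median ratio of 1.85, against 1.33 for pairs of other class 1 bins and 1.42 for all eligible pairs.

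Bin pairs with a contact in 2 cells were few, and the sparse trans contacts of a cell leave little room for repeats. An expected number of repeats was not computed. Of 345 bin pairs of highest bins with a contact in any of the 10 cells, 3 were seen in 2 cells (0.870%), the most for any pair. They were chromosome 3 from 88000001 with chromosome 17 from 34000001, chromosome 9 from 107500001 with chromosome 11 from 120000001, and chromosome 14 from 55000001 with chromosome 15 from 78000001. Over all eligible pairs, 66 of 31363 (0.210%) were seen in 2 cells. The share among the highest bins rests on 3 pairs. The highest bins also have a larger trans share in the cells, and its part in this contrast was not tested.

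Coverage in the ensemble also differed between the sets. The highest bins had a median of 38457 contact ends there, against 12856 in the lowest bins and 19908.5 in all eligible bins, and 118 ends per fragment end, against 47.6 and 71.6. In the pool the medians were closer, with 947 ends, against 807.5 and 894, and 3.05 ends per fragment end, against 3.02 and 3.15. Fragment ends per bin had medians of 311.5 in the highest bins, 268 in the lowest and 279 in all eligible bins. The part that coverage has in the ensemble results was not tested.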

How the data were processed

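Per the file headers, the deposited files give 1 line per contact, with chromosome and position (bp) of both fragment ends, a quantity other than a count of reads; each contact is listed once. Positions are on mm9 (build per the submitters' processing notes), while aligner and read filters were not given in the sources used here. Contacts of the 9 Bgl II cells were removed from the pool, 3 mitochondrial contacts of cell 8 were left out, and ends were counted in 500 kb bins. Value columns without a sample numbered 0.

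Per-bin excesses were tested with limma 3.58.1 in R 4.3.3 (lmFit and eBayes, intercept against 0, two-sided, Benjamini-Hochberg over bins, threshold 0.05, at least 30 ends in the 9 cells). The trans fit was checked on simulated data, and the far cis fit was not. Sets of bins were described by their values in each cell, with no test, except the longest run of either set, for which an exact sign permutation test over the 9 cells was used. Expected partners came from each partner chromosome's trans ends. Classes used 1 Mb bins and 50 balancing iterations. Python 3.11.15, numpy 2.4.6, scipy 1.17.1, pandas 2.3.3 and networkx 3.6.1 were used.

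Members, lists and tests were chosen with earlier results of these data known. Named regions were, by rule, the 10 highest and 5 lowest bins, those at the threshold, members called in the trans fit (0 here), the longest run, and the 5 pairs with the highest ensemble ratio at 20 or more expected contacts. Other runs, bins of the far cis fit, bins with extreme pairing ratios, pairs seen in 2 cells and pairs or bins named for an alternative setting were chosen after their values were seen. No gene or sequence is given, because no mm9 annotation or genome was used here. Alternatives were other bin sizes, minimum ends, rankings, set sizes, distances, weights, expectations and class settings, no X, all 10 cells, and each cell left out.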

Additional observations from a re-analysis of the deposited data

Results flagged for a closer look

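Among 13 quantities measured in the 9 Bgl II cells, 2 had a single cell standing apart. Chance alone would set 1 apart in about 1 of 20 separate quantities. These 13 share cells and bins, so that rate cannot say whether 2 is many. In cell 1 the trans share of the highest bins was 8.28 points above that of the lowest bins, the smallest difference in points. Cell 1 also had the smallest trans share over all eligible bins, 6.96%. As a ratio it was not low: its highest bins had 1.77 times the trans share of eligible bins, where the 9 cells ranged from 1.34 to 1.81. In cell 4 the pairing of highest with highest bins was -0.584 points from expectation, where the mean over the 9 cells was 6.23 points; the highest bins of cell 4 had 55.1% of their trans partners in class 1, the lowest of the 9 cells.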

How the results depend on the processing

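No paired analysis was possible because the single cells form 1 group per enzyme and the replicate numbers only name them. The per-bin trans fit called 1 bin with all 10 cells, and 1 with the chromosome's share as the expected share, in place of 0; neither was among the highest bins. With a cell left out it called 0 to 1, and 0 to 1 of the highest bins. The far cis fit, which called 111 bins and 22 of the highest bins as lower, called 0 and 0 with no weights, 23 and 3 for contacts over 20 Mb, and 36 of the highest bins for contacts over 5 Mb. With a cell left out it called 62 to 101 bins, and 12 to 25 of the highest bins. The cause of these changes was not tested. Set against other bins of the same chromosomes, and not against the lowest bins, the highest bins differed by 7.504 points in trans share and -9.65 points in far cis share; against all other eligible bins these were 8.78 and -11.8 points. With bins ranked within chromosomes, highest minus lowest bins came to 11.6 points in trans share. For contacts over 20 Mb the far cis difference was -15.7 points. Pairing among the 100 highest bins exceeded expectation by 3.05 points; with fewer bins the expected share is smaller too. Without balancing, the difference in class 1 share was 23.97 points. With a cell left out, the trans difference ranged over 13.996 to 15.2 points, the far cis difference over -20.7 to -19.3 points and pairing over 5.78 to 7.08 points. No set difference changed its sign in any alternative run. Single bins hold few ends in a cell, which limits what can be said of 1 bin.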
